A study of Oncorhynchus mykiss with 42 samples.

Results

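The 22 cDNA clones described here read lower in stage III than in stage I-II testis of rainbow trout (Oncorhynchus mykiss), both in freshly collected tissue and in tissue cultured without hormone. They were chosen from the 8175 clones that held values in the deposited log2 table, and so make up 0.269% of them. The choice used group means. A clone was kept if its stage III minus stage I-II difference was -0.5 or lower on the log2 scale at T0 and in Ctrl, if Ctrl differed from T0 by under 0.4 at both stages, and if FSH and LH, averaged over the stages, each differed from Ctrl by under 0.25. The stage differences at T0 and in Ctrl, the culture differences and the hormone differences against Ctrl are therefore given as descriptions, with no test. The stage difference in FSH arrays and in LH arrays took no part in the choice, and nor did the comparison of FSH with LH between the stages, so these 3 comparisons were tested. The FSH and LH arrays entered the choice only through their means over both stages.

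Each of the 42 nylon arrays was hybridised with cDNA from 1 sample of whole testis, made from 5 µg of total RNA and labelled with radioactive phosphorus. The tissue came from an all-male population; fish age, strain and genotype are not given in the labels. At stage III, 6 arrays held fragments cultured with salmonid FSH, 6 with salmonid LH, 6 without hormone (Ctrl) and 3 uncultured testis (T0), and stage I-II had the same numbers in the same groups. Each hormone was given at 500 ng/mL, and all cultures ran for 96 h at 12 °C with new medium at 48 h. All cultured groups also share the modified L15 medium with a serum substitute. The labels tie no array to a fish and describe the fragments as distributed at random over the wells. Arrays of 1 stage may therefore share donors, stage and donor fish cannot be told apart, and the p-values below measure the spread between these arrays, which may be technical.

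Salmonid testes are staged by how far the germ cells have advanced. Early stages hold spermatogonia together with Sertoli cells and the interstitial tissue, and germ cells in later steps of spermatogenesis take up a growing share of the organ as it matures. FSH and LH are the pituitary gonadotropins that drive this process: in fish testis FSH acts on Sertoli cells and, in several species, also on Leydig cells, and LH acts on Leydig cells, which make the androgens. A clone that reads lower in a more advanced testis can hold less RNA per cell or belong to a cell type that makes up a smaller share of the tissue. In whole testis these cannot be told apart. The files pair 0 clones with a gene symbol, so the clones are named by their deposited IDs, no role can be given to any of them, the lists of germ cell, Sertoli, Leydig, interstitial and blood cell genes were not tested, and the tissue label was not checked against markers.

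On 3 arrays the scanner export lists its signal columns in another order, with the fitted signal before the image signal. These were stage III arrays, 1 each of FSH (replicate 61), LH (replicate 67) and Ctrl (replicate 58). The deposited values of these arrays followed the fitted signal more closely (rank correlation over clones of 0.988 to 0.991) than the image signal (0.958 to 0.967). On the other 39 arrays the order was turned round, with 0.972 to 0.996 for the image signal and 0.944 to 0.973 for the fitted signal. Without the 3 arrays, the rule kept 23 clones, among them 20 of the 22, and lost 1rt121n04_d_g02 and tcay0024.k.24. The median signal of the repeated control spots also moved with stage in part of the groups, averaging 127 ± 21.9 intensity units in stage III FSH arrays and 199 ± 25.3 in stage I-II FSH arrays (SD over 6 arrays, here and for the next 2 conditions). In LH arrays these spots averaged 131 ± 31.5 in stage III, against 124.5 ± 18.4 in stage I-II. In Ctrl arrays they averaged 120 ± 25.2 in stage III, against 285 ± 69.9 in stage I-II. At T0 they averaged 577 ± 484 in stage III (209.5 to 1125.5), against 730 ± 206 in stage I-II (SD over 3 arrays). These spots thus differed between T0 and Ctrl as well. Where leaving out these 3 arrays, or the control signal as a covariate, changed a call of a clone, this is given beside it.

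The values that chose the clones were spread over all parts of the rule. Of 8175 clones, 1149 read lower in stage III by 0.5 or more at T0, 297 did so in Ctrl, and 152 did so in both. Of those 152 clones, 23.0% also met the culture limit at both stages, against 48.0% of all clones. This left 35 clones, and the hormone limits left 22; the same rule with the stage sign turned also gave 22. Among the 22, the stage III minus stage I-II difference ran from -1.27 to -0.50 at T0 with a median of -0.70, and from -1.04 to -0.52 in Ctrl with a median of -0.60. Over all clones the median was -0.01 at T0 and 0.01 in Ctrl.

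The clones next to the stage limits differed little across them. At the T0 limit, tcba0016.p.23 (-0.50) and 1rt26n01_b_g01 (-0.52) lay just inside, and tcay0002.j.06 (-0.48) and tcac0003.f.23 (-0.45) just outside. At the Ctrl limit, tcbk0020.e.23 and 1rt95o02_c_h01 (both -0.52) were inside, and 1rt96l04_d_f02 and tcac0002.h.21 (both -0.49) outside. The Ctrl limit alone kept out 169 clones that met every other part, and the T0 limit alone kept out 18. For the culture difference in stage III, tcay0019.n.15 (0.35) and tcbk0053.d.08 (0.34) were inside, and tcay0016.d.12 (0.46) and tcay0031.j.20 (0.51) outside. In stage I-II, 1rt95o02_c_h01 (-0.38) and tcbk0021.n.17 (0.35) were inside, and 1rt114a17_a_a09 (-0.41) and 1rt48l14_d_f07 (-0.43) outside. Few clones were kept out by 1 hormone limit alone: 2 by FSH, tcbk0043.m.07 (0.52) and tcad0009.j.11 (0.77), and 4 by LH. Of the 4, tcbk0059.i.08 (-0.26) and tcbi0011.p.20 (0.32) lay nearest. The other clones lost between the 35 and the 22 failed both hormone limits. Just inside were tcbk0021.n.17 (0.19) and tcaa0001.e.05 (0.18) for FSH, and tcay0002.g.15 (0.23) and 1rt31c24_c_b12 (0.20) for LH. The stage limits thus cut through a continuous range of values, and at the FSH limit no clone that met the other parts lay between 0.19 and 0.52.

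In cultures with FSH, all 22 clones had a lower mean in stage III than in stage I-II. Of these, 19 passed as lower in stage III by the test across all clones (limma, Benjamini-Hochberg adjusted p under 0.05). Over all 8175 clones, 5.52% passed in this direction. The difference among the 22 ran from -0.93 to -0.27 with a median of -0.54, against 0.01 over all clones. For 5 of them every stage III array lay below every stage I-II array: 1rt89h15_b_d08, 1rt95o02_c_h01, tcay0002.g.15, tcbk0020.e.23 and tcbk0021.p.02. Among all clones 2.47% showed such a gap. The clones 1rt95o02_c_h01, tcay0011.e.06 and tcbk0039.l.06 did not pass the test with FSH. With the signal of the repeated control spots as a covariate, 14 of the 22 passed, and the median difference was -0.51. The 5.52% above belongs to the fit without this covariate, so the lower count is not shown to be particular to the members.

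In cultures with LH, the mean was again lower in stage III for all 22 clones. By the same test 16 passed as lower in stage III, where 6.64% of all clones did so. The difference ran from -1.06 to -0.15 with a median of -0.53, against a median of 0.00 over all clones. No array overlapped between the stages for 10 clones, against 3.36% of all clones. The 10 were 1rt102k16_c_f08, 1rt127a05_a_a03, 1rt155l06_d_f03, 1rt31c24_c_b12, 1rt95o02_c_h01, tcaa0001.g.03, tcay0002.g.15, tcba0016.p.23, tcbk0020.e.23 and tcbk0024.l.06. The 6 clones that did not pass with LH were 1rt121n04_d_g02, 1rt26n01_b_g01, tcay0019.n.15, tcay0024.k.24, tcbk0021.n.17 and tcbk0039.l.06.

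Counted over both hormones, 14 of the 22 clones passed as lower in stage III in FSH arrays and in LH arrays, where 3.22% of all clones did. A further 5 passed with FSH and not with LH, 2 with LH and not with FSH, and tcbk0039.l.06 with neither. Groups without overlap in both hormones were found for 1rt95o02_c_h01, tcay0002.g.15 and tcbk0020.e.23, against 1.2% of all clones. The plot of stage differences by clone sets these values beside those that the rule used.

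**Figure D1:**
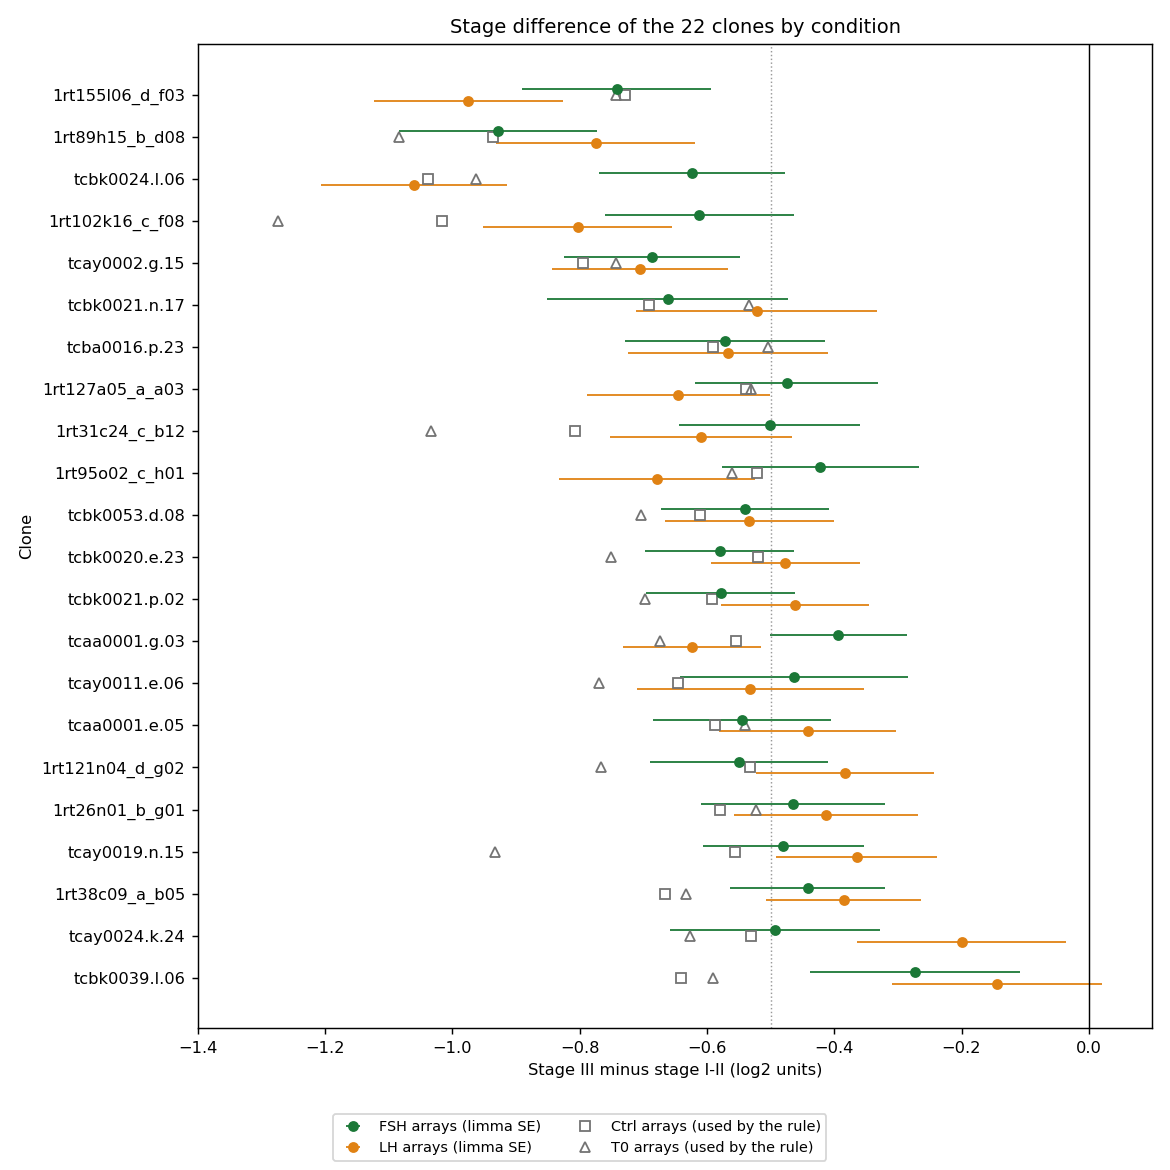
Stage III minus stage I-II difference of each of the 22 clones (rows) in log2 units (horizontal axis), with FSH and LH arrays as filled circles with the limma standard error and Ctrl and T0 arrays as open symbols. All values lie left of 0. The dotted line marks -0.5, the limit that the rule set for the open symbols alone, and several FSH and LH values lie to its right, those of tcay0024.k.24 (LH, -0.20) and tcbk0039.l.06 (LH, -0.15) farthest.

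The greatest stage differences were those of tcbk0024.l.06, 1rt155l06_d_f03 and 1rt89h15_b_d08. In LH arrays, tcbk0024.l.06 read 6.26 at the lowest, 6.92 at the median and 7.14 at the highest in stage III, against 7.54, 7.88 and 8.22 in stage I-II. All stage III arrays lay below all stage I-II arrays. The difference was -1.06 ± 0.146 (SE, n = 6 arrays per stage), 2.09-fold lower in stage III, with an adjusted p of 8.87e-07 (limma). With FSH the clone read 6.78, 6.99 and 7.29 in stage III (lowest, median and highest), against 7.20, 7.65 and 8.19 in stage I-II. Here 4 of 6 stage III arrays lay below the lowest stage I-II array, and the groups overlapped. The difference with FSH was -0.62 (adjusted p = 0.00223). Uncultured stage III testis read 6.97, 7.20 and 6.84 on its 3 arrays, against 7.98, 7.96 and 7.96 in stage I-II. The 3 values of stage I-II nearly coincided, and all lay above those of stage III.

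For 1rt155l06_d_f03, the LH arrays read 5.90, 6.34 and 6.74 in stage III (lowest, median and highest), against 7.07, 7.21 and 7.80 in stage I-II. No array overlapped, and the log2 difference was -0.98 (adjusted p = 5.65e-06). In FSH arrays the values were 6.23, 6.31 and 6.95 in stage III, against 6.95, 7.13 and 7.40 in stage I-II. Of the stage III arrays with FSH, 5 lay together below stage I-II, and replicate 61, an array of the other column order, reached the lowest stage I-II reading. The difference with FSH was -0.74 (adjusted p = 0.000327). This clone was dim: its spot stood above the background limit on 2 of 6 stage III arrays with FSH and 2 of 6 with LH, and on all stage I-II arrays of both. At T0 it read 6.53, 5.79 and 6.01 in stage III, against 7.02, 6.68 and 6.86 in stage I-II, and no stage III array at T0 was above background. On the scanner signal it was at least 1.31-fold lower in stage III at T0, the bound that the background allowed.

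The clone with the greatest stage difference in FSH arrays was 1rt89h15_b_d08. It read 5.96, 6.84 and 7.02 in stage III (lowest, median and highest), against 7.20, 7.75 and 7.92 in stage I-II. The stages did not overlap, although stage III was widely spread. The difference was -0.93 ± 0.156 (SE, n = 6 arrays per stage), 1.90-fold lower in stage III, with an adjusted p of 2.66e-05 (limma). With LH it read 6.36, 6.73 and 7.09 in stage III, against 7.07, 7.54 and 7.79 in stage I-II, and a single stage III array exceeded the lowest of stage I-II. The difference with LH was -0.78 (adjusted p = 0.000415). At T0 the 3 stage III arrays read 6.58, 6.87 and 6.67, against 7.80, 7.81 and 7.76 in stage I-II. Its spot touches one that is 19.8 times brighter, and 8 of the 22 members touch a spot over 4 times brighter, as do 52.9% of all clones. It was above background on 4 of 6 stage III arrays with FSH.

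**Figure D2:**
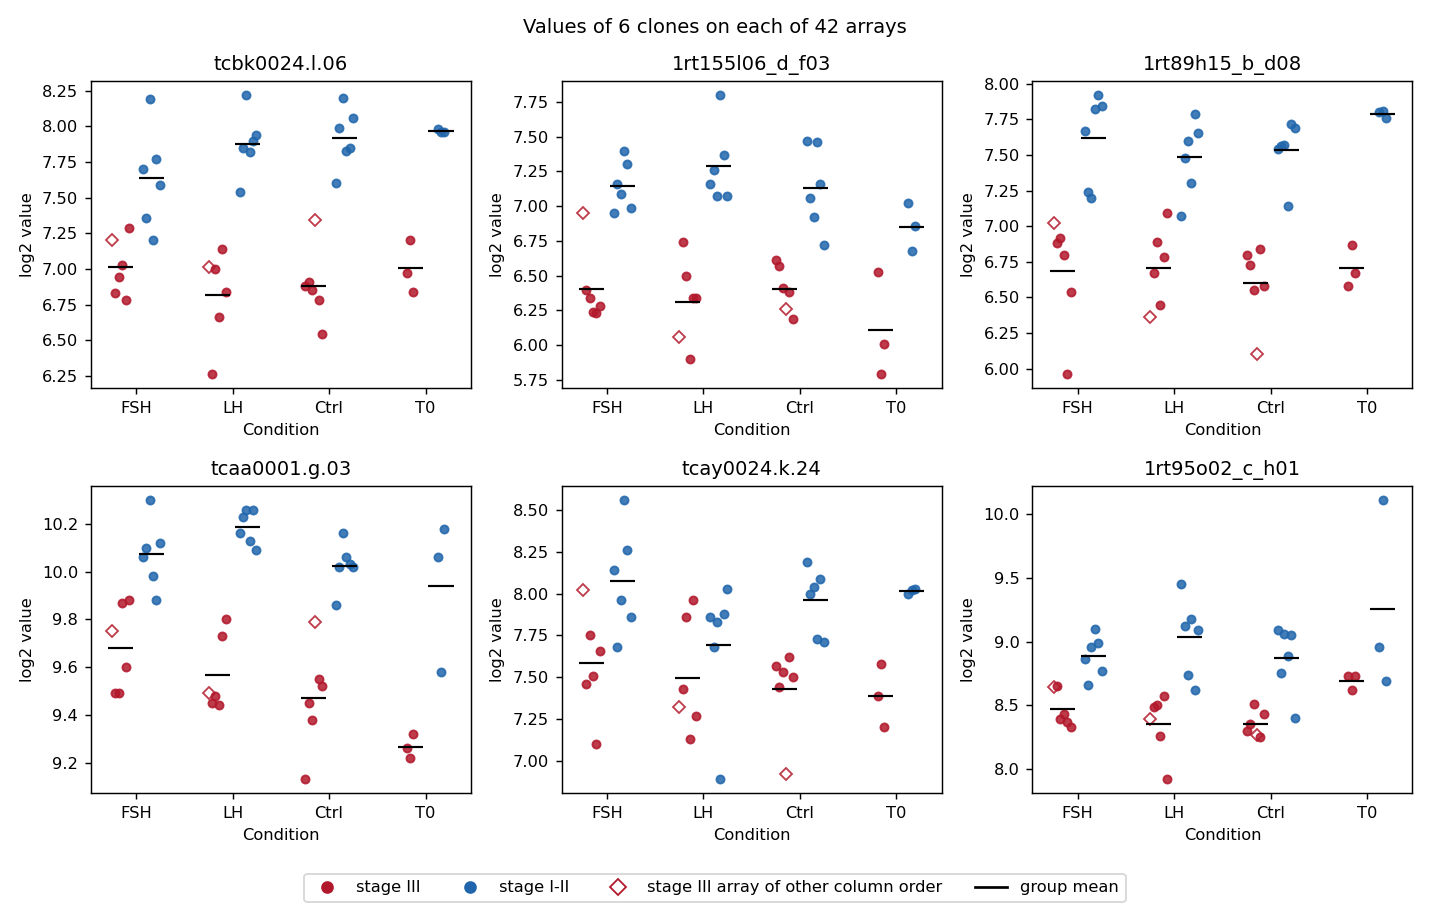
Log2 values (vertical axis) of 6 of the 22 clones on each of the 42 arrays, by condition, with stage III in red left of stage I-II in blue, bars at the group means and open diamonds for the 3 stage III arrays of the other column order. In tcbk0024.l.06, 1rt155l06_d_f03 and 1rt89h15_b_d08 the stages stand apart or nearly so in every condition, of which T0 and Ctrl chose the clones. In tcay0024.k.24 they mix with LH, and in 1rt95o02_c_h01 a single stage I-II array at T0 (10.11) stands far above the rest.

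The next clones by mean difference were 1rt102k16_c_f08 and tcay0002.g.15. With LH, 1rt102k16_c_f08 read 6.30, 6.44 and 6.53 in stage III (lowest, median and highest), against 6.76, 7.29 and 7.50 in stage I-II. The stage III arrays were tightly grouped below all of stage I-II. The difference was -0.80 (adjusted p = 0.000136). With FSH, it read 6.34, 6.61 and 7.49 in stage III, against 6.83, 7.36 and 7.64 in stage I-II, so that stage III was more spread out and 4 of its 6 arrays lay below stage I-II. The difference with FSH was -0.61 ± 0.149 (SE, n = 6 arrays per stage; adjusted p = 0.00339). The stage difference of this clone varied more between the 4 conditions than that of any other member, by 0.66, with -1.27 at T0 as its greatest value. It was above background on 5 of 6 stage III arrays with FSH and 4 of 6 with LH.

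In tcay0002.g.15 the stages stood apart with both hormones. FSH arrays read 5.87, 6.37 and 6.78 in stage III, against 6.87, 7.10 and 7.20 in stage I-II, a difference of -0.69 (adjusted p = 0.000367). LH arrays read 6.16, 6.65 and 6.85 in stage III, against 6.96, 7.33 and 7.73 in stage I-II, a difference of -0.71 (adjusted p = 0.000296). Ctrl arrays, which the rule used, read 6.06 to 6.77 in stage III and 6.92 to 7.30 in stage I-II, also without overlap. The clone was above background on 3 of 6 stage III arrays with FSH and 5 of 6 with LH.

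Of tcbk0021.n.17, the FSH arrays read 7.84, 8.21 and 8.75 in stage III (lowest, median and highest), against 8.65, 8.89 and 9.32 in stage I-II. A single stage III array entered the range of stage I-II, and the difference was -0.66 (adjusted p = 0.0149). With LH it read 6.90, 8.27 and 8.57 in stage III, against 8.20, 8.66 and 8.89 in stage I-II, with 2 of 6 stage III arrays below stage I-II and a difference of -0.52 that did not pass (adjusted p = 0.0647). The lowest of these LH readings came from replicate 67, an array of the other column order. The FSH call was lost without stage I-II FSH replicate 26 and with the control covariate, where the adjusted p reached 0.0693 at most. This clone had the widest spread of the 22, with an SD within groups of 0.350, against a median of 0.252 over all clones.

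With LH, tcba0016.p.23 read 6.86, 7.22 and 7.32 in stage III, against 7.44, 7.74 and 7.99 in stage I-II, and the stages did not overlap. With FSH it read 6.69, 7.13 and 7.35 in stage III, against 7.25, 7.70 and 8.07 in stage I-II, and 5 of 6 stage III arrays lay below stage I-II. Both differences were -0.57, with an adjusted p of 0.0109 for FSH and 0.0119 for LH. The clone thus read lower in stage III than in stage I-II in both hormone conditions.

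The clones 1rt127a05_a_a03 and 1rt31c24_c_b12 separated more clearly with LH than with FSH by count of arrays, a contrast between hormones that did not pass its own test, given further on. LH arrays of 1rt127a05_a_a03 read 8.52, 8.63 and 8.81 in stage III (lowest, median and highest), against 8.88, 9.27 and 9.85 in stage I-II. All 6 stage III arrays were below stage I-II (difference -0.65, adjusted p = 0.00137). FSH arrays read 8.57, 8.86 and 9.05 in stage III, against 9.03, 9.19 and 9.81 in stage I-II, and 5 of 6 lay below. The FSH difference of -0.48 passed with an adjusted p of 0.0221, and the call was lost with the control covariate and on leaving out stage I-II replicate 28 or 29 or stage III replicate 64 or 66 (adjusted p at most 0.142).

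For 1rt31c24_c_b12, LH arrays read 8.99, 9.16 and 9.43 in stage III, against 9.62, 9.75 and 9.99 in stage I-II, with no overlap and a difference of -0.61 (adjusted p = 0.00243). FSH arrays read 8.85, 9.09 and 9.37 in stage III, against 9.14, 9.59 and 9.97 in stage I-II, with 4 of 6 below and a difference of -0.50 (adjusted p = 0.0143). Without stage I-II FSH replicate 25, or with the control covariate, the FSH call was lost (adjusted p at most 0.0665). At T0, the difference of this clone was -1.03, so its stage difference ranged over 0.53 between conditions.

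The clone 1rt95o02_c_h01 had no overlap between the stages with either hormone, yet passed the test with LH alone. LH arrays read 7.92, 8.44 and 8.57 in stage III, against 8.62, 9.11 and 9.45 in stage I-II, a difference of -0.68 (adjusted p = 0.00176). FSH arrays read 8.33, 8.41 and 8.65 in stage III, against 8.66, 8.91 and 9.10 in stage I-II, a difference of -0.42 (adjusted p = 0.0704). The clone passed with FSH in 3 of 25 other settings. These were the compared groups fitted alone, the scanner signal, and clones touching a spot over 4 times brighter left out. Its membership was the least settled of the 22: it was lost on leaving out any 1 of 6 arrays, stage I-II Ctrl replicates 19, 21 and 23 and stage I-II T0 replicates 1, 2 and 3. The T0 values were 8.73, 8.62 and 8.73 in stage III and 8.96, 10.11 and 8.69 in stage I-II. Without the T0 array at 10.11, the T0 difference was -0.13 and the clone no longer met the rule. On the scanner signal the T0 difference was 0.06.

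At the other end stood tcbk0039.l.06, tcay0024.k.24, 1rt38c09_a_b05 and tcay0019.n.15, whose mean differences with the hormones were nearest 0. In tcbk0039.l.06, FSH arrays read 4.95, 5.52 and 5.86 in stage III (lowest, median and highest), against 5.56, 5.60 and 5.96 in stage I-II. LH arrays read 4.93, 5.63 and 6.06 in stage III, against 5.24, 5.67 and 5.96 in stage I-II. The stages overlapped widely with both hormones, and the differences of -0.27 (FSH, adjusted p = 0.331) and -0.15 (LH, adjusted p = 0.67) did not pass. This clone was not above background on any of the 42 arrays, so no fold is given for it.

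In FSH arrays, tcay0024.k.24 read 7.10, 7.59 and 8.02 in stage III, against 7.68, 8.05 and 8.56 in stage I-II, and 4 of 6 stage III arrays lay below stage I-II. In LH arrays it read 7.13, 7.38 and 7.96 in stage III, against 6.89, 7.85 and 8.03 in stage I-II. The lowest LH array of all was one of stage I-II, so that no stage III array lay below that group. The difference was -0.49 with FSH (adjusted p = 0.042) and -0.20 with LH (adjusted p = 0.513). The FSH call was lost in 11 of 25 other settings, among them the control covariate and leaving out stage I-II replicate 25, 27, 28 or 29 or stage III replicate 62, 64, 65 or 66 (adjusted p at most 0.192).

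Differences of 1rt38c09_a_b05 were small and similar, at -0.44 with FSH (adjusted p = 0.0108) and -0.39 with LH (adjusted p = 0.0294). FSH arrays read 5.95, 6.07 and 6.39 in stage III, against 6.38, 6.58 and 6.80 in stage I-II. LH arrays read 5.96, 6.12 and 6.55 in stage III, against 6.44, 6.53 and 6.70 in stage I-II. With each hormone 5 of 6 stage III arrays lay below all of stage I-II. The LH call was lost without stage I-II LH replicate 31 or 36, without stage III LH replicate 67, 69 or 72, and without the 3 arrays of the other column order (adjusted p at most 0.0774). The clone was above background on 1 of 6 stage III arrays with FSH and 3 of 6 with LH.

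FSH arrays of tcay0019.n.15 read 5.88, 6.17 and 6.46 in stage III, against 6.32, 6.77 and 6.82 in stage I-II, a difference of -0.48 (adjusted p = 0.00758). LH arrays read 6.14, 6.22 and 6.83 in stage III, against 6.60, 6.70 and 6.80 in stage I-II, a difference of -0.37 that missed the threshold (adjusted p = 0.052) and passed without the 3 arrays of the other column order (-0.39, adjusted p = 0.0455). In LH cultures 5 stage III arrays lay below stage I-II and 1 above it. At T0 the values were 5.55, 5.72 and 6.02 in stage III, against 6.41, 6.68 and 7.0 in stage I-II. None of these stage III arrays was above background, and on the scanner signal the clone was at least 1.30-fold lower in stage III at T0. With the hormones it was above background on 1 of 6 stage III arrays in each.

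The clones with the highest signal were tcaa0001.g.03, 1rt31c24_c_b12, 1rt121n04_d_g02 and 1rt127a05_a_a03, all above background on every array. Signals of different spots do not order RNA levels, so these clones are named for the brightness of their spots alone. In LH arrays, tcaa0001.g.03 read 9.44, 9.49 and 9.80 in stage III (lowest, median and highest), against 10.09, 10.20 and 10.26 in stage I-II. All stage III arrays were lower, with a difference of -0.62 (adjusted p = 4.91e-05). In FSH arrays it read 9.49, 9.68 and 9.88 in stage III, against 9.88, 10.08 and 10.30 in stage I-II. The highest stage III array equalled the lowest of stage I-II, and the difference was -0.39 (adjusted p = 0.0109). This clone had the smallest SD within groups of the 22, at 0.163.

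For 1rt121n04_d_g02, FSH arrays read 8.69, 8.86 and 9.07 in stage III, against 9.06, 9.46 and 9.77 in stage I-II, with 5 of 6 below and a difference of -0.55 ± 0.140 (SE, n = 6 arrays per stage; adjusted p = 0.00546). LH arrays read 8.52, 8.99 and 9.29 in stage III, against 9.14, 9.40 and 9.67 in stage I-II, with 4 of 6 below and a difference of -0.38 (adjusted p = 0.0667). The LH difference thus missed the threshold, and it passed without the 3 arrays of the other column order (adjusted p = 0.0467).

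Of the other 6 clones, tcbk0020.e.23 and tcbk0021.p.02 had the steadiest values, with an SD within groups of 0.185 each. With FSH, tcbk0020.e.23 read 7.50, 7.78 and 8.0 in stage III, against 8.09, 8.27 and 8.62 in stage I-II, a difference of -0.58 (adjusted p = 0.00036). With LH it read 7.45, 7.87 and 8.0 in stage III, against 8.12, 8.28 and 8.31 in stage I-II, a difference of -0.48 (adjusted p = 0.00388). It had no overlap with either hormone. Nor did it overlap at T0 and in Ctrl, where the choice of the clones favoured a gap. FSH arrays of tcbk0021.p.02 read 6.95, 7.13 and 7.19 in stage III, against 7.24, 7.70 and 8.14 in stage I-II, a difference of -0.58 (adjusted p = 0.000373) with no overlap. Its LH difference was -0.46 (adjusted p = 0.00531), with 5 of 6 stage III arrays below stage I-II.

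The differences of tcbk0053.d.08 were -0.54 with FSH (adjusted p = 0.00364) and -0.53 with LH (adjusted p = 0.00431), and it was above background on 1 of 6 stage III arrays with FSH and 3 of 6 with LH. At T0 it was above background on 0 of 3 stage III arrays and 1 of 3 stage I-II arrays. The bound that the background allowed there was 0.945-fold, so it settled no direction at T0. The scanner signal at T0 averaged 5.83 in stage III and 6.25 in stage I-II on the log2 scale. The differences of tcaa0001.e.05 were -0.55 with FSH (adjusted p = 0.00565) and -0.44 with LH (adjusted p = 0.0293). Its LH call was lost with the compared groups fitted alone, with the export column order as a block, without stage I-II replicate 32 or 34, without stage III replicate 67 or 68, and without the 3 arrays of the other column order (adjusted p at most 0.1). The FSH difference of 1rt26n01_b_g01, -0.47, passed (adjusted p = 0.0261) and its LH difference, -0.41, did not (adjusted p = 0.0531). The FSH call was lost with the control covariate, with the compared groups fitted alone, without stage I-II replicate 26, 27 or 30 and without stage III replicate 62, 64 or 65 (adjusted p at most 0.0946). In tcay0011.e.06 it was the LH difference, -0.53, that passed (adjusted p = 0.0433), and the FSH difference, -0.46, that did not (adjusted p = 0.0896). Without the 3 arrays of the other column order this order turned round, with an adjusted p of 0.0208 for FSH and 0.151 for LH. The LH call of this clone was also lost with array weights, with the compared groups fitted alone, with the column order as a block, and without stage I-II replicate 32, 33, 35 or 36 or stage III replicate 67, 68, 70 or 71, so that its side of the threshold was not settled.

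Whether the stages differed in how FSH compared with LH was tested as FSH minus LH in stage III, less the same in stage I-II. Of the 22 clones, 0 passed (limma, adjusted p under 0.05), as did 0% of all clones, and at an unadjusted p under 0.05 there was 1 clone of the 22, against 6.45% of all clones. That clone was tcbk0024.l.06, where the value was 0.44 (unadjusted p = 0.0396, adjusted p = 0.764). Its FSH arrays averaged 7.01 ± 0.203 in stage III and 7.63 ± 0.346 in stage I-II, and its LH arrays 6.82 ± 0.320 in stage III and 7.88 ± 0.219 in stage I-II (SDs of 6 arrays each). The next lowest unadjusted p was 0.14, for tcaa0001.g.03. A clone that passed with 1 hormone and not with the other is therefore not shown to differ between the hormones. The scatter of both differences over all clones shows where the 22 lie.

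**Figure D3:**
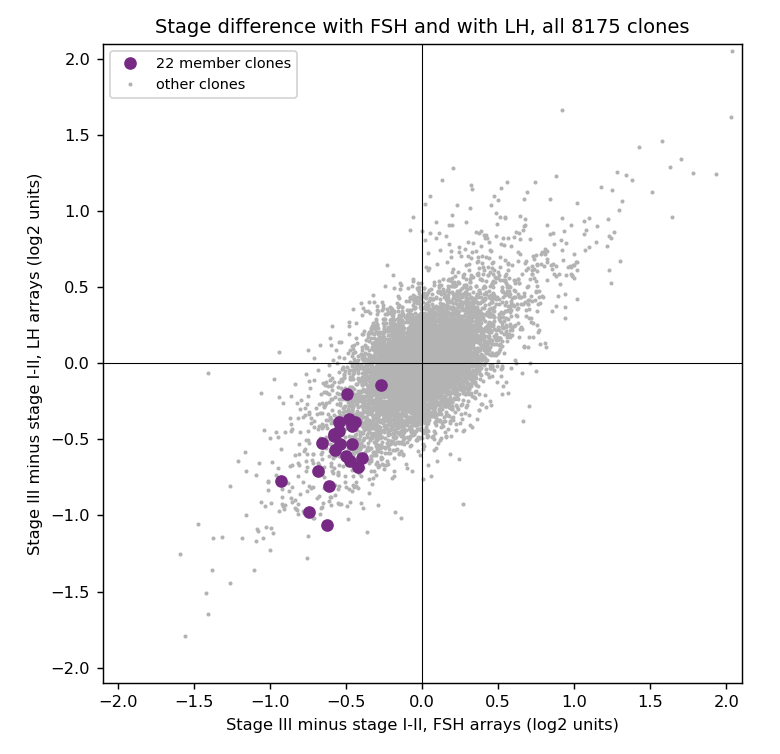
Stage III minus stage I-II difference in FSH arrays (horizontal axis) and in LH arrays (vertical axis), both in log2 units, with 1 point for each of the 8175 clones and the 22 members in purple. The members lie in the lower left, from -0.93 to -0.27 on the FSH axis and from -1.06 to -0.15 on the LH axis, and other clones lie farther out in the same direction.

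The mean of the 22 clones on each array set the stages apart in every condition, a separation that the choice of the clones fixed at T0 and in Ctrl. In stage III it was 7.36 ± 0.0897 with FSH, 7.34 ± 0.0876 with LH, 7.26 ± 0.0549 in Ctrl (SD, n = 6 each) and 7.20 ± 0.0680 at T0 (SD, n = 3). In stage I-II it was 7.91 ± 0.0624 with FSH, 7.89 ± 0.0791 with LH, 7.93 ± 0.0601 in Ctrl (SD, n = 6 each) and 7.94 ± 0.0446 at T0 (SD, n = 3). With FSH the arrays ran from 7.20 to 7.47 in stage III and from 7.80 to 7.99 in stage I-II. With LH they ran from 7.25 to 7.48 in stage III and from 7.77 to 7.97 in stage I-II. Stage I-II means thus lay between 7.89 and 7.94 in all conditions, and those of stage III lay lowest at T0 and highest with FSH. The limits on the culture and hormone differences kept the means of each stage close together. The order in stage III is partly set by the choice of clones low there at T0 and in Ctrl.

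Within each stage the hormones moved the clones little, as the rule required of the mean over both stages. In stage III, FSH minus Ctrl had a median of 0.11 over the 22 clones, with 19 above 0, and LH minus Ctrl a median of 0.06, with 17 above 0. In stage I-II the medians were -0.02 for FSH, with 10 above 0, and -0.04 for LH, with 8 above 0. The Ctrl values that entered these differences also chose the clones, low in stage III and high in stage I-II, so the directions are partly set by the choice. The greatest single values were 0.33 for LH in stage III (tcbk0039.l.06, not above background) and -0.29 for FSH in stage I-II (tcbk0024.l.06). Ctrl minus T0 had a median of 0.07 in stage III and 0.00 in stage I-II, against -0.04 over all clones at each stage. FSH minus LH, which shares no Ctrl array, had a median of 0.01 in stage III and 0.02 in stage I-II. The limits on FSH and LH against Ctrl also limited this difference, averaged over the stages.

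**Figure D4:**
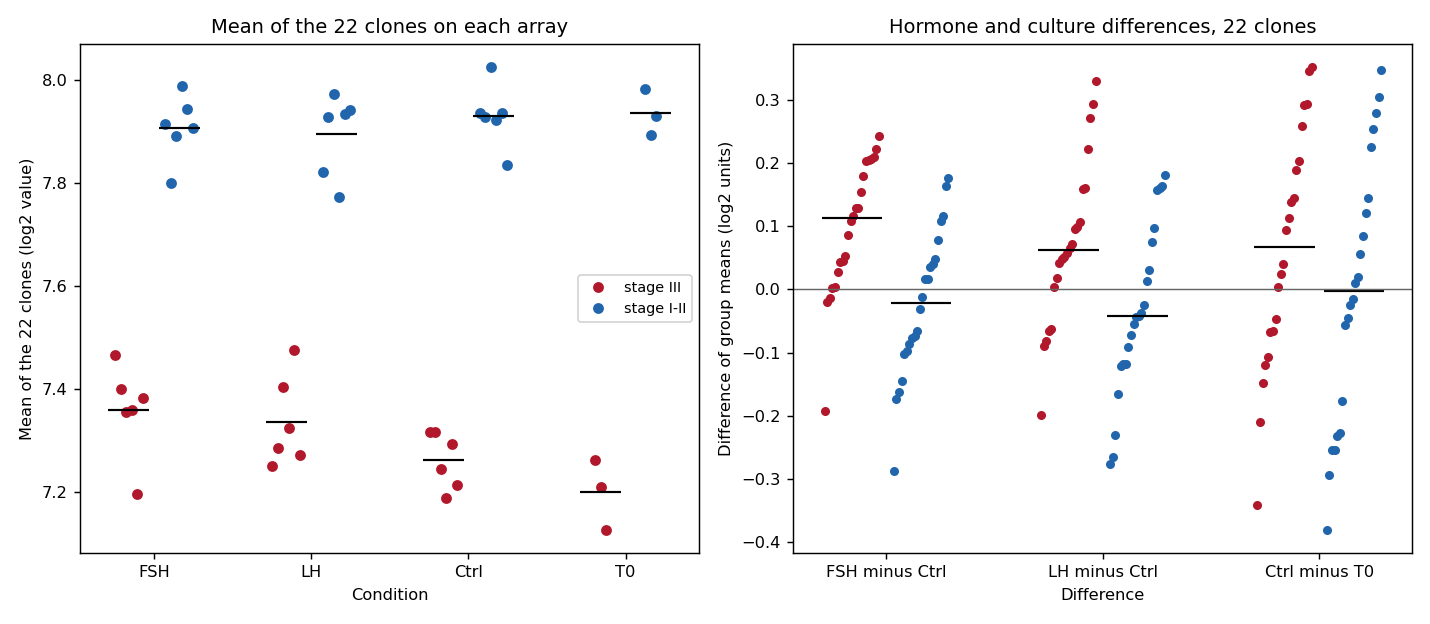
Left, the mean log2 value of the 22 clones on each array (vertical axis) by condition, stage III in red and stage I-II in blue, with bars at the group means: every stage III array lies between 7.13 and 7.48 and every stage I-II array between 7.77 and 8.02. Right, the difference of group means of each clone (vertical axis, log2 units) for FSH minus Ctrl, LH minus Ctrl and Ctrl minus T0 in each stage, with bars at the medians, which lie between -0.04 and 0.11.

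The clones came from several libraries, by the prefix of their IDs. Of the 22, 9 had the prefix 1rt (40.9%, against 34.7% of all clones), 6 tcbk (27.3%, against 23.1%), 4 tcay (18.2%, against 17.0%), 2 tcaa (9.09%, against 1.21%) and 1 tcba (4.55%, against 10.2%). The 2 tcaa clones, tcaa0001.e.05 and tcaa0001.g.03, were from the same plate, and that prefix holds 99 clones. The members tcbk0021.n.17 and tcbk0021.p.02 also shared a plate. On the membranes the 22 lay in 20 blocks of the grid, and no member touched another. Their mean log2 values ran from 5.57 to 9.80 with a median of 7.37, against 4.54 to 14.91 with a median of 7.15 over all clones, and 13 lay above the median clone. On the scanner, 11 members were above background on all 42 arrays, 10 on some and 1 on none.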

How the data were processed

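The authors deposited a log2 table of the series, the one source of clone IDs, made by a normalization not given in the sources used here, and per the file headers a scanner export of spot intensity per array from AGScan. Of 9216 table rows, 8175 held values; columns had medians of 7.15 to 7.17, and the table ran in the direction of the scanner intensity, on a log2 scale and not centred by clone. A linear model of 8 group means was fitted to every clone with limma 3.58.1 (R 4.3.3), with moderation and two-sided p-values adjusted by Benjamini-Hochberg over all 8175 clones; the call threshold was 0.05. The fit was tested on simulated data with known changes. For scanner values, clones were paired with positions by profile: 93.3% of pairs, and all 22 members, had the nearest position, and 96.4% of clones on 232 plates fell on the commonest block row of their plate, which the pairing did not use. Background was the median of the dim control spots plus 3 scaled median absolute deviations (limits of 52.0 to 139.6 intensity units). The number of arrays limits the precision.

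Members and lists were chosen with earlier results of these data known. Named clones are the 10 with the most negative mean of the FSH and LH differences, the 4 nearest 0, the 4 of highest signal, the 4 most variable between conditions, those next to each limit and the 2 with the lowest p for FSH against LH between stages; tcbk0021.p.02 and tcay0011.e.06 fall outside this and were added so that every member is accounted for. Alternatives were the scanner signal, other normalizations, moderations, weights and thresholds, dim or crowded spots left out, export order as a block, the control signal as covariate and each array left out. The rule was also applied to group medians. Leaving out the 3 arrays of the other column order was added after seeing the data.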

Additional observations from a re-analysis of the deposited data

Results flagged for a closer look

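A single array stood apart from the other 5 of its group, by a gap of more than 0.625 of the group's range (Dixon's 95% limit for 6 samples), in 11 of 138 sets of values examined, each clone and the mean of the 22 in each group of 6 arrays. The 11 fell on 10 of the 22 clones. Chance flags about 1 in 20 groups. On the 3 arrays of the other column order lay 4 of the 11. With FSH in stage III, 1rt155l06_d_f03 read 6.95 on replicate 61 (others 6.23 to 6.40), and tcba0016.p.23 read 6.69 on replicate 63 (others 7.11 to 7.35). With FSH in stage I-II, tcaa0001.e.05 read 7.38 on replicate 25 (others 7.77 to 7.83). With LH in stage III, replicate 67 read 7.27 for tcay0011.e.06 (others 8.02 to 8.42) and 6.90 for tcbk0021.n.17 (others 7.97 to 8.57). Also with LH in stage III, tcay0002.g.15 read 6.16 on replicate 72 (others 6.62 to 6.85), and tcbk0053.d.08 read 5.62 on replicate 70 (others 6.18 to 6.49). With LH in stage I-II, tcay0024.k.24 read 6.89 on replicate 34 (others 7.68 to 8.03), and tcbk0020.e.23 read 8.12 on replicate 36 (others 8.27 to 8.31). In Ctrl, tcay0024.k.24 read 6.92 on stage III replicate 58 (others 7.44 to 7.62), and 1rt89h15_b_d08 read 7.14 on stage I-II replicate 22 (others 7.54 to 7.72).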

How the results depend on the processing

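The number of clones that met the rule moved with the stage threshold: 51 at 0.4 and 9 at 0.6, against 22 at 0.5. Group medians in place of means also gave 22 clones, but only 14 of them were members. Leaving out 1 array at a time gave 18 to 32 clones, with at least 17 of the 22 kept, and 5 members met the rule in all 42 such repeats. On the scanner signal 26 clones met it, 13 of them members, and 9 members did not. The T0 difference there missed -0.5 for 1rt127a05_a_a03 (-0.32), 1rt95o02_c_h01 (0.06), tcaa0001.e.05 (-0.40) and tcay0024.k.24 (-0.30). It also missed for tcbk0021.n.17 (-0.41), tcbk0039.l.06 (-0.4995) and tcbk0053.d.08 (-0.42). Of these, 1rt127a05_a_a03, 1rt95o02_c_h01, tcay0024.k.24 and tcbk0039.l.06 missed the Ctrl limit too. Only the stage III culture limit failed for 1rt155l06_d_f03 and tcay0019.n.15. All 22 still read lower in stage III with FSH and with LH on the scanner signal. Its positions were paired with the clones by their deposited profiles, so this likeness was partly set by the pairing. With FSH, 19 members passed, 16 to 20 without 1 array, 11 of 13 when clones below the median level were left out, and 11 at an adjusted p under 0.01. With LH, 16 passed, 14 to 17 without 1 array, and 12 to 21 in the other settings. Those include the adjusted p under 0.01 and fits with fewer members, such as the 13 above the median level. The shares of all clones given further up belong to the fit of the deposited log2 values on all 42 arrays, not to these settings. The changes in count are thus not shown to be particular to the members. The comparison of FSH with LH between stages gave 0 in every setting, 0 to 0 without 1 array. No difference changed sign where called. With the threshold kept at 0.05, 27 of 35 calls held in every setting in which the clone was fitted, and 8 were lost in at least 1. Of the 9 differences not called, 8 passed in at least 1 setting. Counted in both directions together, more of all clones passed on the scanner signal than on the deposited values, with each hormone. Among the members, no call was lost on the scanner signal and 8 were gained, which is not shown to be particular to them. These gains included tcbk0039.l.06 with FSH (-0.36, limma adjusted p = 0.0389) and with LH (-0.40, limma adjusted p = 0.0197). That clone was above background on none of the 42 arrays. The cause of the gains was not tested. No paired analysis was possible because the labels number the arrays through the series, so groups share no replicate number. Groups of 6 arrays and 1 spot per clone limit the precision, and 11 members were not above background on every array.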

Other observations

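Within groups, after the group means were taken out, the 22 clones did not vary as 1 block. Over the 231 pairs of clones, the correlation across the 42 arrays had a median of 0.03 and ran from -0.55 (1rt155l06_d_f03 with tcay0019.n.15) to 0.72 (1rt89h15_b_d08 with tcay0011.e.06), and 6 pairs were above 0.5. Of those 6 pairs, tcay0011.e.06 was in 3 and tcay0024.k.24 in 3. Without the 3 arrays of the other column order the highest value was 0.69, again for 1rt89h15_b_d08 with tcay0011.e.06, and 8 pairs were above 0.5. The arrays share membrane, labelling and normalization, and the residuals are given as a description, without a comparison with pairs of other clones.

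The deposited values of the members followed the scanner signal across arrays with a correlation of 0.664 to 0.959 (median 0.911), against a median of 0.829 over all clones. Clones were paired with scanner positions by these same profiles, so the correlation was partly set by the pairing and tests neither source. The members were also chosen for a stage difference, so these medians are not a like comparison.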
